A study of Mus musculus with 6 samples.

Results

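The chaperonins are the ring-shaped folding machines of the cell, and 10 genes for their parts were followed in CD27SP NK cells lacking or carrying *Myc*. They were chosen by name as the 8 subunit genes of the cytosolic chaperonin TRiC, also called CCT (*Tcp1*, *Cct2*, *Cct3*, *Cct4*, *Cct5*, *Cct6a*, *Cct7* and *Cct8*), and the 2 genes of the mitochondrial chaperonin (*Hspd1* and *Hspe1*), out of 25690 gene symbols in the tables. Of these, 9 were measured. *Cct6a*, which GENCODE M21 places at chr5:129786998-129846371 on GRCm38, matched no row of the tables and was not analysed here. The study compared BM cells of *Ncr1cre Myc* wt/wt mice with those of *Ncr1cre Myc* fl/fl mice, and 3 RNA-seq libraries per genotype carry the replicate numbers 1, 2 and 4. Both genotypes carry the Cre recombinase driven by the *Ncr1* locus, which becomes active as an NK cell starts to express NKp46, so deletion in the CD27SP subset is recent. The mice were on a C57BL/6 background and matched for sex and age, and the cells were sorted as NK1.1+, CD27+, CD11b- and negative for CD3. The labels do not say whether a library is 1 mouse, so p-values measure the spread between these libraries, part of which may be technical.

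TRiC takes up newly made proteins, among them actin and tubulin, into the chamber formed by a pair of back-to-back rings, and closes over them in a cycle driven by ATP. Each ring holds 1 copy of each of its 8 different subunits. *Hspd1* encodes Hsp60, which forms the folding chamber of the mitochondrial matrix, and *Hspe1* encodes Hsp10, the lid of that chamber. Immature CD27SP NK cells are a dividing population, and dividing cells make actin, tubulin and mitochondrial proteins that pass through these chambers. MYC is a transcription factor that binds DNA together with MAX, and the letters CACGTG, the E-box, are its best known binding sequence.

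The estimated counts summed to between 8101219 and 64962491 per library. The shallowest was the first *Ncr1cre Myc* wt/wt library, and the other 5 held between 54550907 and 64962491. *Myc* was measured at 200, 183 and 164 CPM (read counts scaled to the TMM-normalized library size) in the wt/wt libraries and at 61.5, 64.6 and 76.5 in the fl/fl libraries. It fell by 1.44 on the log2 scale (standard error 0.155, adjusted p = 0.00189, edgeR with the replicate number as a block), and every library matched its label. NK cell markers were present throughout, with sums over 9 genes of 12245 to 13473 CPM in wt/wt and 14346 to 15780 CPM in fl/fl libraries, and none of the 9 passed the test. Markers of some other cells were higher in the fl/fl libraries. The summed level of 9 basophil and mast cell genes was 15.1 to 18.6 CPM in wt/wt and 122 to 335 CPM in fl/fl libraries (8 of 9 past the threshold in edgeR), and that of 10 genes of granulocyte-monocyte progenitors and neutrophils was 86.0 to 141 against 543 to 907 CPM (5 of the 9 tested past it). The sum of 6 erythroid genes was 610 to 843 against 1244 to 1622 CPM, and without *Car2*, the most abundant of them, 42.7 to 278 against 523 to 1135 CPM. Of these 6, edgeR called 0 with the block (1.28% of all genes were called higher), 1 without it (1.31%) and 5 when weakly expressed genes were kept (2.53%), and DESeq2 called 3 (4.41%). The number of marker calls changed with the tool and with libraries left out. DESeq2 called 8 of 8 basophil and mast cell genes and 8 of 9 genes of granulocyte-monocyte progenitors and neutrophils (4.41% of all genes). Without the block and without the first wt/wt library, 4 basophil and mast cell genes, 3 genes of granulocyte-monocyte progenitors and neutrophils and 0 erythroid genes were called, with 0.708% of all genes. Leaving out any 1 of the 6 libraries gave 3 to 8, 3 to 5 and 0 to 4 calls in these lists. The sum of 5 T cell genes was 227 to 473 against 237 to 317 CPM, with none past the threshold. No marker of these lists was at 0 in a whole genotype. The part of these cells in the chaperonin values was not tested. In bulk RNA, fewer cells of a type and less RNA per cell cannot be told apart.

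Every measured chaperonin gene was lower in *Ncr1cre Myc* fl/fl than in wt/wt cells, by moderate amounts. The mean level in fl/fl libraries was 58.9% (*Cct5*) to 77.6% (*Hspe1*) of that in wt/wt libraries. In all 9 genes the highest fl/fl library lay under the lowest wt/wt library, a separation in that direction that 15.1% of the 15474 tested genes showed (16.2% in the opposite direction). The threshold for a call, an adjusted p below 0.01 together with a log2 difference of 0.5 or more in size, was passed by 0 of the 9 in edgeR's quasi-likelihood test, against 0.872% of all genes called lower and 1.28% called higher. An adjusted p below 0.05 was reached by 4 of them, *Cct5*, *Hspd1*, *Cct4* and *Tcp1*, against 3.38% of all genes in that direction, and an unadjusted p below 0.05 by 9 of 9, against 10.2%. Without the replicate block 7 of the 9 had an adjusted p below 0.05, *Cct3*, *Cct7* and *Cct8* in addition, against 4.47% of all genes. The call depended on the tool and the filter. DESeq2 called these same 4 lower, along with 3.68% of its 14574 genes, and limma-trend called 0, along with 0.265% of all genes. With no filter on low counts edgeR called 3, *Cct5*, *Hspd1* and *Cct4*, along with 1.83% of its 20689 genes. The median log2 fold change of the 9 genes was −0.55, and that of all tested genes 0.01.

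**Figure D1:**
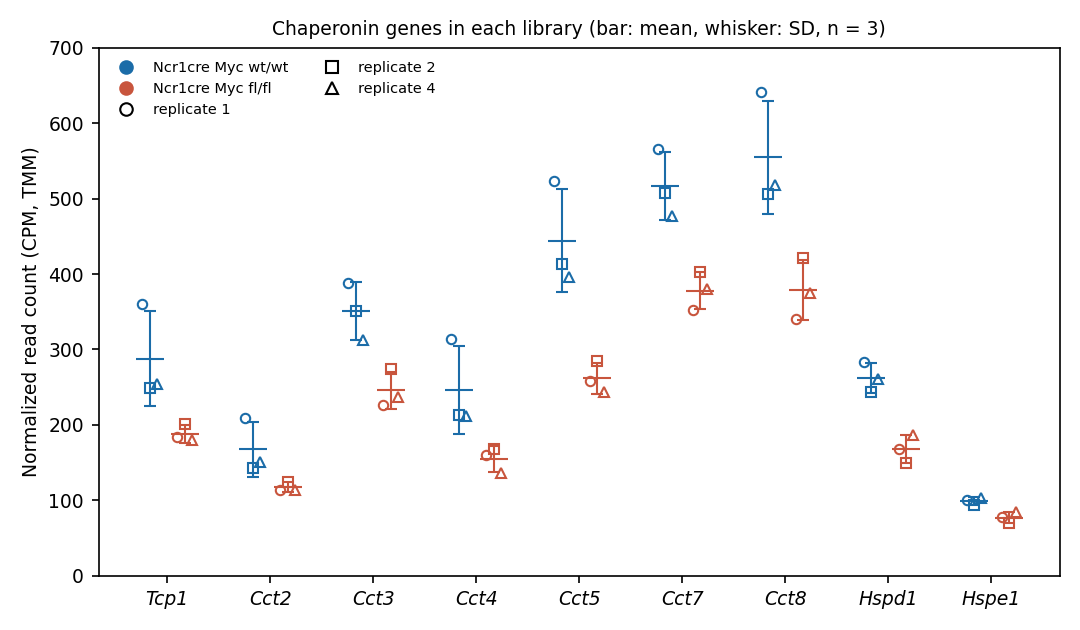
Normalized read counts (CPM, TMM) of the 9 measured chaperonin genes in each of the 6 libraries, with symbols for the replicate numbers and bars for the mean and SD of 3 libraries per genotype. For each gene the 3 *Ncr1cre Myc* fl/fl libraries lie below the 3 wt/wt libraries, and the first wt/wt library is the highest for 8 of the 9 genes.

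*Cct5*, the epsilon subunit (chr15:31590800-31601804, minus strand), differed most. It was measured at 523, 413 and 396 CPM in the wt/wt libraries and at 258, 284 and 243 CPM in the fl/fl libraries. The lowest wt/wt library was thus well above the highest fl/fl library. The log2 fold change was −0.76 ± 0.144 (standard error, 95% interval −1.04 to −0.47, adjusted p = 0.0141), and 5.80% of all tested genes had a more negative value. Without the replicate block, *Cct5* was the 1 chaperonin gene past the threshold (adjusted p = 0.00949), where 1.19% of all genes were called lower, and it no longer passed with any 1 of the 6 libraries left out.

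*Cct4*, the delta subunit (chr11:22990519-23003780, plus strand), was measured at 314, 213 and 212 CPM in wt/wt and at 160, 168 and 136 CPM in fl/fl libraries. Its first wt/wt library stood 1.48 times above the mean of the other 2, the widest such gap among the 9 genes. The log2 fold change was −0.65 ± 0.153 (adjusted p = 0.0336), and −0.49 once the libraries with the number 1 were left out. *Tcp1*, the alpha subunit after which the complex was first named (chr17:12915701-12925067, plus strand), was at 360, 249 and 254 CPM in wt/wt and at 183, 202 and 179 CPM in fl/fl libraries. Here too the first wt/wt library was high, 1.43 times the mean of the other 2. The log2 fold change of *Tcp1* was −0.59 ± 0.158 (adjusted p = 0.0499), and −0.40 without the libraries numbered 1.

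*Cct8*, the theta subunit (chr16:87483326-87495873, minus strand), had the highest mean read count of the 9 genes in wt/wt cells, 641, 506 and 517 CPM in wt/wt and 341, 421 and 375 CPM in fl/fl libraries. The difference was a log2 fold change of −0.55 ± 0.156, with an adjusted p of 0.0641 in edgeR. *Cct3*, the gamma subunit (chr3:88297116-88321767, plus strand), was at 389, 351 and 313 CPM in wt/wt and 227, 274 and 237 CPM in fl/fl libraries. Its log2 fold change was −0.51 ± 0.142 (adjusted p = 0.0588). Both genes thus had separate groups, with an adjusted p above 0.05 with the replicate block and of 0.0335 (*Cct8*) and 0.0341 (*Cct3*) without it. *Cct2*, the beta subunit (chr10:117051001-117063814, minus strand), was at 209, 142 and 151 CPM in wt/wt and 113, 125 and 114 CPM in fl/fl libraries. The library numbered 2 of wt/wt was only slightly above that of fl/fl, and the log2 fold change was −0.49 ± 0.159 (adjusted p = 0.0932). *Cct7*, the eta subunit (chr6:85451514-85468475, plus strand), was at 566, 507 and 477 CPM in wt/wt and 352, 402 and 380 CPM in fl/fl libraries, with a log2 fold change of −0.45 ± 0.139 (adjusted p = 0.0847).

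The differences were smaller without the first wt/wt library. Taken between libraries of the same number, the median log2 difference of the 9 genes was −0.89 for number 1, −0.34 for number 2 and −0.47 for number 4, while the medians over all genes were 0.07, 0.00217 and −0.00579. Every gene was lower in all 3 of these comparisons, which follows from the lack of overlap between the genotypes given above. With only the first wt/wt library left out, in a fit without the block, the median log2 fold change was −0.45. In that fit 4 of the 9 had an adjusted p below 0.05, *Cct5* (0.0136), *Hspd1* (0.0244), *Tcp1* (0.0382) and *Cct4* (0.0481), against 3.87% of all genes in that direction. With both libraries numbered 1 left out and the block kept, which leaves 2 libraries per genotype, the median was −0.38, no adjusted p was below 0.05 and the smallest was 0.0568, for *Cct5*.

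**Figure D2:**
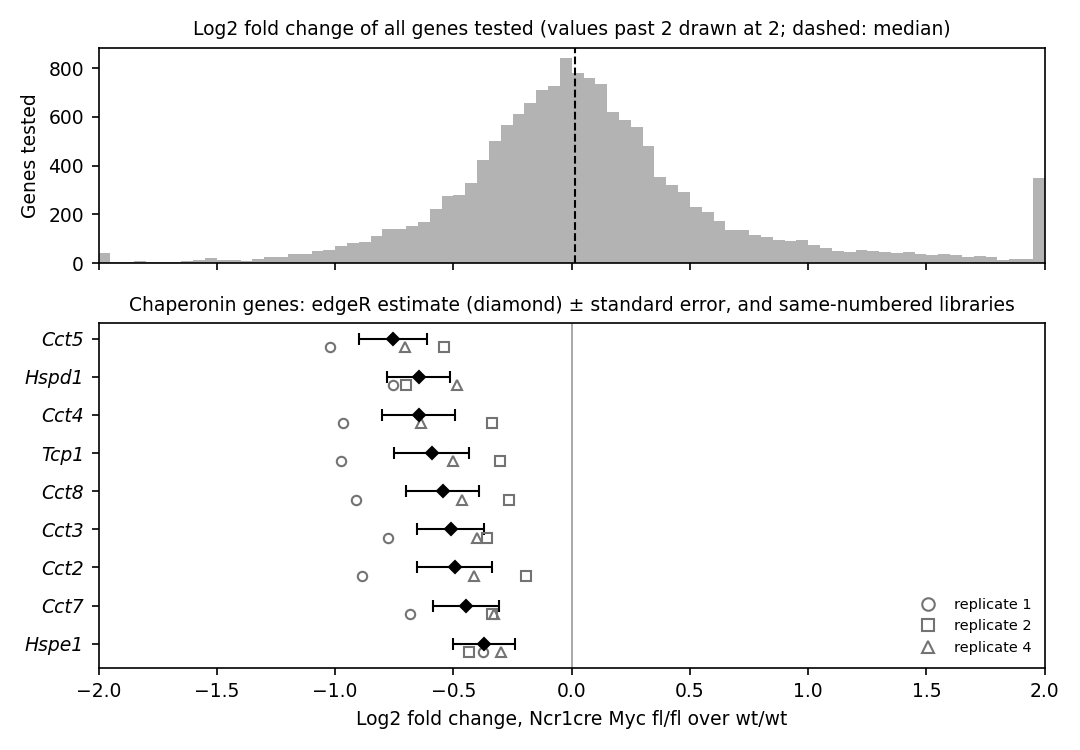
Log2 fold changes of all 15474 tested genes as a histogram (top; values past 2 in either direction are drawn at the edge, the dashed line is the median) and of the 9 chaperonin genes (bottom; diamonds with standard errors from edgeR, grey symbols for differences between libraries of the same number). All symbols lie below 0, and the replicate 1 difference is the most negative for 8 of the 9 genes.

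*Hspd1* and *Hspe1* stand head to head on chromosome 1, *Hspd1* at chr1:55077835-55088243 on the minus strand and *Hspe1* at chr1:55088132-55091307 on the plus strand of GRCm38. *Hspd1* was measured at 283, 243 and 261 CPM in wt/wt and at 168, 149 and 186 CPM in fl/fl libraries. Its first wt/wt library was less apart from the others than in most TRiC genes, 1.12 times their mean. The log2 fold change of *Hspd1* was −0.65 ± 0.134 (95% interval −0.91 to −0.38, adjusted p = 0.0197), and it was −0.59 without the libraries numbered 1. *Hspe1* was at 101, 93.6 and 103 CPM in wt/wt and at 77.5, 69.2 and 84.0 CPM in fl/fl libraries. It had the smallest difference of the 9 genes, a log2 fold change of −0.37 ± 0.130 (adjusted p = 0.121), which was the same to 2 decimals (−0.37) without the libraries numbered 1.

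The short stretches between and around the starts of these 2 genes are shown because they hold the letters searched for. They are from RefSeq promoter windows on GRCm38.p6, and run 5′ to 3′ on the strand of the gene named, with the motif in capitals.
Hspd1, E-box, chr1:55088306-55088335, minus strand: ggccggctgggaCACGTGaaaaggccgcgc
Hspe1, heat shock elements, chr1:55088053-55088082, plus strand: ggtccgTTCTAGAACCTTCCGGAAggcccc
The capitals of the first are 80 bases upstream of an *Hspd1* start at position 55088243, which is 95 bases from the *Hspe1* start at 55088148. In GENCODE M21 this stretch lies in the 5′ UTR of the first exon of *Hspe1*-201. The capitals of the other begin 89 bases upstream of the *Hspe1* start, in the 5′ UTR exon of *Hspd1*-202, and join 2 copies of TTCNNGAA with a GAANNTTC between them, overlapping both. These are the inverted sites read by heat shock factor.

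The same letters were looked for on both strands in the windows of 300 bases (250 before and 50 after a start) of all genes in the RefSeq table. It held 12 windows for 9 of the 10 chaperonin genes and none for *Cct4*. CACGTG was found in 1 of these 12 windows, of *Hspd1*, and in 7.15% of all 32851 windows. TTCNNGAA was found in 4 of the 12, of *Cct5*, *Cct6a*, *Hspd1* and *Hspe1*, and in 8.52% of all windows. GAANNTTC was found in 3 of the 12, of *Cct2*, *Hspd1* and *Hspe1*, and in 7.86% of all windows. Either of the last 2 was in 5 of the 12 and in 15.1% of all windows. The windows of *Hspd1* and *Hspe1* overlap, and their matches to these 2 motifs are the same sites in the genome, counted for both genes. A match is a run of letters only, and these libraries hold no measurement of binding.

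Levels between genes were compared per length, as TPM, the authors' estimate of transcripts relative to all transcripts of a library. In wt/wt cells the mean order was *Cct8* (446 TPM), *Cct7* (391), *Cct5* (370), *Cct3* (265), *Tcp1* (228), *Hspe1* (221), *Cct4* (218), *Hspd1* (189) and *Cct2* (148). Most neighbours in this order overlapped in the range of the 3 libraries. The exceptions were *Cct5* over *Cct3* and *Hspd1* over *Cct2*. The most abundant TRiC subunit was 2.76 to 3.12 times the least abundant within each of the 6 libraries, although the assembled ring holds its subunits in equal numbers. The 7 measured subunits together held 2481, 1928 and 1789 TPM in wt/wt and 1404, 1552 and 1407 TPM in fl/fl libraries, so the fl/fl mean was 70.4% of the wt/wt mean, and 78.3% without the first wt/wt library.

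**Figure D3:**
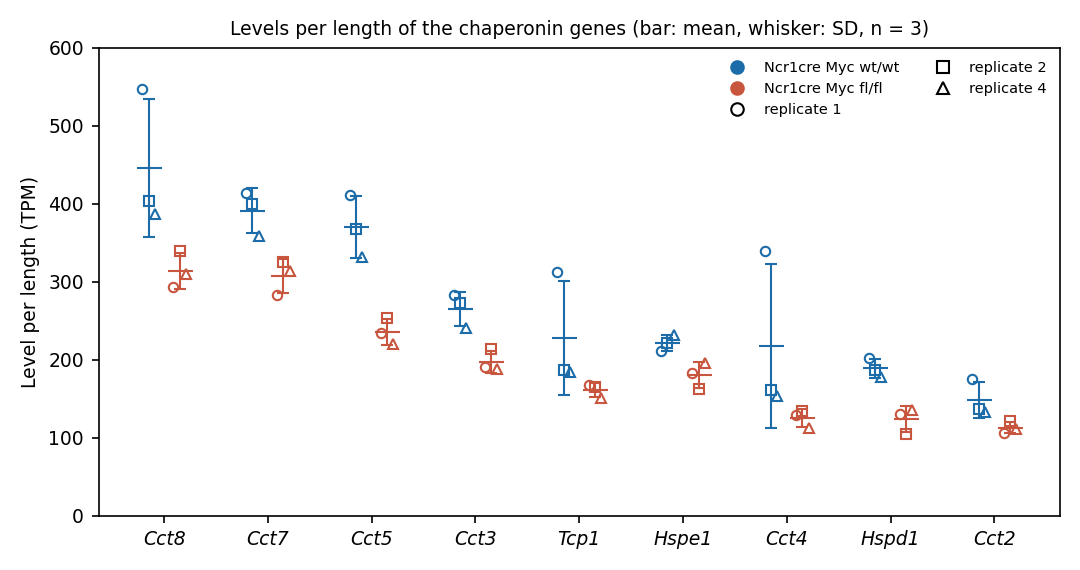
Levels per length (TPM) of the 9 measured chaperonin genes, ordered by the wt/wt mean, for each library, with bars for the mean and SD of 3 libraries per genotype. *Cct8*, *Cct7* and *Cct5* are the highest, at 370 TPM or more on average in wt/wt cells, and the first wt/wt library is far above the other 2 for *Tcp1* and *Cct4*.

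The shares of 6 of the 7 subunits overlapped between the genotypes. The share of *Cct8* in the summed TPM of the 7 subunits was 21.5% ± 0.545 (SD, n = 3) in wt/wt and 21.6% ± 0.590 in fl/fl libraries. *Cct2* was the 1 subunit whose share separated the groups, with 7.05%, 7.10% and 7.43% in wt/wt and 7.59%, 7.78% and 7.92% in fl/fl libraries. The share of *Cct5* was 18.1% ± 1.30 in wt/wt and 16.2% ± 0.493 in fl/fl libraries, and the first library of each genotype overlapped, at 16.6% each, whereas the other 2 wt/wt libraries, at 19.0% and 18.5%, lay above the fl/fl libraries. The share of *Cct7* was 19.2% ± 2.17 in wt/wt and 21.1% ± 1.09 in fl/fl libraries, and that of *Cct4* 13.7%, 8.35% and 8.59% in wt/wt and 8.62% ± 0.594 in fl/fl libraries. The TPM ratio of *Hspe1* to *Hspd1* was 1.04, 1.18 and 1.31 in wt/wt and 1.40, 1.55 and 1.44 in fl/fl libraries, without overlap. With 3 libraries per genotype an exact permutation test of such a ratio cannot give a two-sided p below 0.10, so none is given.

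The authors' tables divide each gene's counts between annotated transcripts, and this division is an estimate. Summed over the 9 genes, protein-coding transcripts held 2839, 2494 and 2462 CPM in wt/wt and 1693, 1877 and 1730 CPM in fl/fl libraries, a log2 ratio of the means of −0.56. Transcripts annotated with a retained intron held 118, 72.1 and 77.7 CPM in wt/wt and 77.2, 72.5 and 82.5 CPM in fl/fl libraries, with overlapping groups and a log2 ratio of −0.21. Without the first wt/wt library that ratio was 0.05, against −0.49 for the protein-coding transcripts. The contrast is seen in *Hspe1*, where the coding transcript *Hspe1*-201 had a log2 ratio of −0.44 and the retained-intron transcript *Hspe1*-202 one of −0.03. Of the 7 chaperonin genes with a retained-intron transcript, 6 had a less negative or higher log2 ratio for it than for the coding transcripts, with a median difference of 0.38. Over 3703 genes with a mean of at least 1 CPM in both classes the median difference was −0.05, and 44.9% were above 0. Those genes were not matched for a fall in coding transcripts, whose median log2 ratio was −0.01 over them. The chaperonin genes were chosen with earlier results known, so the difference cannot be read as particular to them.

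**Figure D4:**
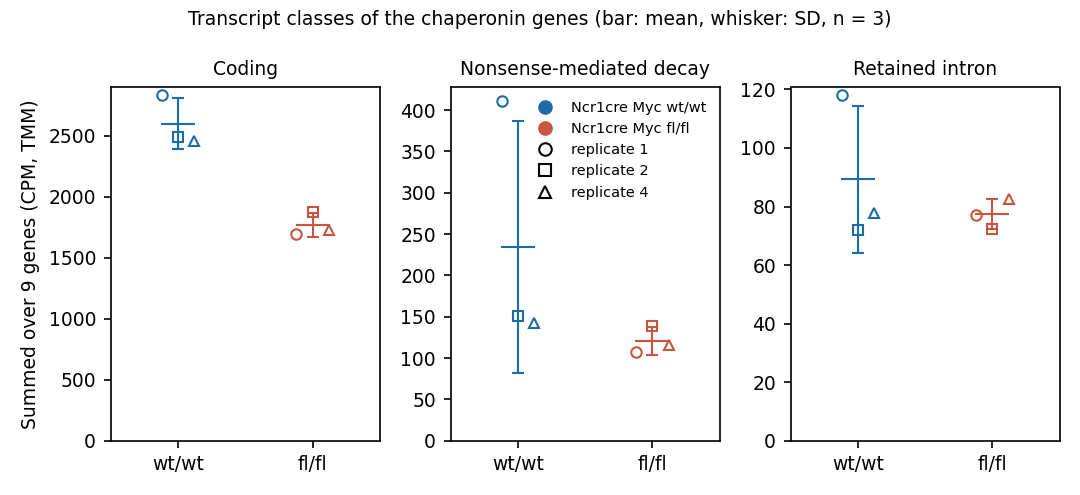
Summed CPM of protein-coding, nonsense-mediated decay and retained-intron transcripts of the 9 chaperonin genes in each library, with the mean and SD of 3 libraries per genotype; the 3 vertical axes differ in scale. Coding transcripts separate the genotypes, retained-intron transcripts overlap, and the first wt/wt library holds 411 CPM of nonsense-mediated decay transcripts against 151 or less elsewhere.

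The first wt/wt library differed from the rest in this division. Transcripts annotated for nonsense-mediated decay, a pathway that removes mRNAs with an early stop, held 12.1% of its chaperonin counts and 5.30% to 6.65% of those of the other 5. In *Cct8* they were 180 CPM in that library, and 73.6 and 67.1 CPM in the other 2 wt/wt libraries. On coding transcripts alone *Cct8* was level between the 3 wt/wt libraries, at 441, 430 and 449 CPM, and lower in fl/fl libraries, at 285, 362 and 329 CPM. Coding transcripts of *Cct7* were at 360, 417 and 387 CPM in wt/wt and at 290, 306 and 299 CPM in fl/fl libraries. The high values of the first library for *Cct7* and *Cct8* thus lay in their other transcript classes. In other genes it was high on coding transcripts too. These were at 308 CPM against 232 and 234 in the other wt/wt libraries for *Tcp1*, and 209 against 141 and 150 for *Cct2*. For *Cct4* they were at 262 against 206 and 203 CPM, and for *Cct5* at 511 against 405 and 391 CPM. A fit over coding transcripts alone called 0 of the 9 past the threshold, with log2 fold changes of −0.77 for *Cct5* (adjusted p = 0.0178), −0.66 for *Hspd1* and −0.39 for *Cct7*.

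Several members share bases with a neighbour on the opposite strand, and it is not stated whether counting used the strand. The overlaps are 112 bases between *Hspd1* and *Hspe1*, 457 between *Cct7* and *Pradc1*, 192 between *Cct8* and *Usp16*, and 1255 and 645 between *Tcp1* and its neighbours *Acat3* and *Mrpl18*. These are overlaps of whole gene spans, introns included. Where transcripts of both genes hold such bases, their reads cannot be told apart without the strand. The annotation also lists 13 pseudogene copies named after the members, and 0 of them had a row in the tables, so reads from such copies may be counted with the members.

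The wider folding machinery was read from 6 lists of 85 genes, 83 of them tested. In edgeR 0 passed the threshold in either direction, with an unadjusted p below 0.05 for 12 lower (10.2% of all genes) and 3 higher (12.4% of all genes). DESeq2 called 4 lower (3.68% of all genes) and 3 higher (4.41%), and limma-trend 0 (0.265% of all genes lower and 0.575% higher). Adjusted p-values in edgeR were below 0.05 for 4 lower (3.38% of all genes) and 3 higher (4.45%). In number, 60 of the 83 had a log2 fold change below 0, against 48.5% of all tested genes.

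Prefoldin, which hands nascent actin and tubulin to TRiC, and the phosducin-like cofactors of TRiC had 7 of 9 tested genes below 0 and a median log2 fold change of −0.23. None reached an unadjusted p below 0.05 in edgeR, and the smallest adjusted p in DESeq2 was 0.236. *Vbp1*, the prefoldin subunit with the highest read count, was at 179, 152 and 180 CPM in wt/wt and at 131, 169 and 135 CPM in fl/fl libraries, with overlap. Its log2 fold change was −0.24 ± 0.156 (adjusted p = 0.424).

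Genes for proteins folded by TRiC lay on both sides of 0, with 11 of 18 below it and a median log2 fold change of −0.01. *Actb*, the cytoplasmic beta-actin, was the most abundant, at 11071, 10682 and 10969 CPM in wt/wt and 16285, 11046 and 10581 CPM in fl/fl libraries, and had a log2 fold change of 0.18 ± 0.161 (adjusted p = 0.568). The genes named next were chosen after their values were seen, as those with an adjusted p below 0.05. *Cdc20*, an activator of the anaphase-promoting complex, was lower by a log2 fold change of −0.73 (adjusted p = 0.0132), *Tubb5* by −0.64 (0.0185) and *Tuba1b* by −0.51 (0.0494). The tubulin genes *Tubb6* and *Tubb2a*, with mean wt/wt levels of 26.6 and 11.4 CPM, were higher by 0.88 (0.0157, and 0.0579 without the replicate block) and 1.07 (0.0253). Members of the tubulin family therefore differed in direction.

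Other mitochondrial chaperones and proteases had 10 of 12 genes below 0 and a median of −0.15. *Hspa9*, the Hsp70 that draws proteins into the matrix upstream of Hsp60, was the most abundant of them. It was measured at 306, 252 and 258 CPM in wt/wt and at 171, 169 and 182 CPM in fl/fl libraries, without overlap. Its log2 fold change of −0.64 ± 0.137 (adjusted p = 0.0225) was close in value to that of *Hspd1*.

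The cytosolic Hsp70 and Hsp90 system had 19 of 25 genes below 0 and a median of −0.10, and 0 reached an adjusted p below 0.05 in edgeR. *Hspa1b*, a stress-inducible Hsp70, had the highest mean CPM of this list over the 6 libraries, at 2567, 3217 and 2815 CPM in wt/wt and 2985, 3178 and 5739 CPM in fl/fl libraries. Its rank rests on the fl/fl library numbered 4, and in wt/wt cells *Hspa8* had the higher mean, 3336 CPM. The genotypes overlapped for *Hspa1b*, and that fl/fl library stood apart (log2 fold change 0.41 ± 0.198, adjusted p = 0.263). The ER chaperones had 10 of 15 genes below 0 and a median of −0.10. *Hspa5*, or BiP, was at 1533, 1118 and 1159 CPM in wt/wt and 1262, 1321 and 1508 CPM in fl/fl libraries (log2 fold change 0.11, adjusted p = 0.746). *Dnajb9*, an ER co-chaperone of BiP picked after its value was seen, was higher by 0.86 (adjusted p = 0.0116). The chaperonin-like genes had 3 of 4 tested below 0 and a median of −0.07, and *Mkks*, the most abundant, was at 12.4 CPM in wt/wt and 11.3 CPM in fl/fl libraries on average.

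**Figure D5:**
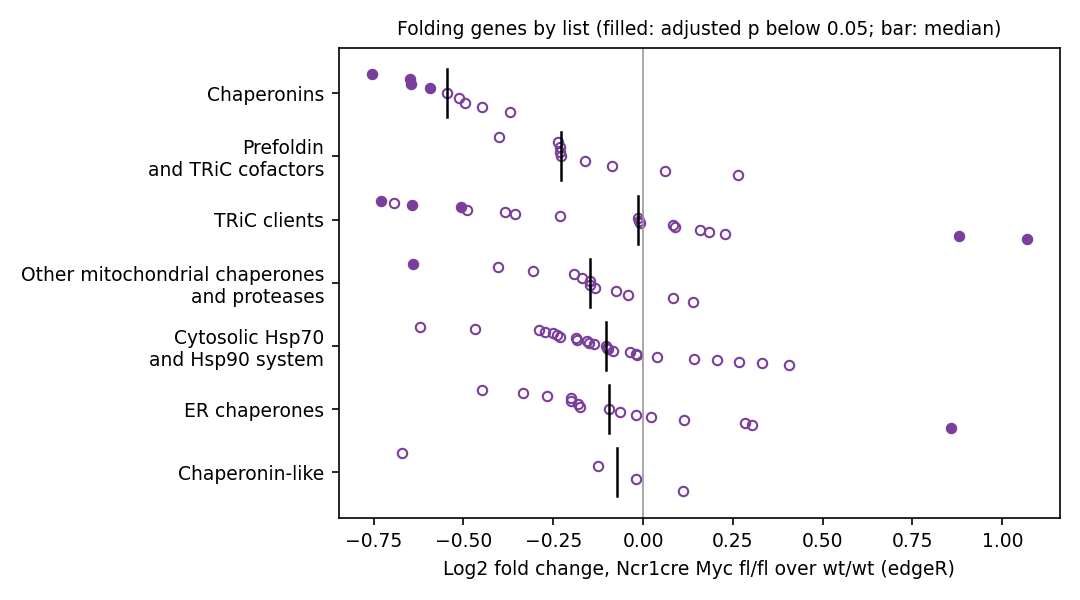
Log2 fold changes (fl/fl over wt/wt, edgeR) of the 9 chaperonin genes and of 6 lists of folding genes; each circle is a gene, filled where the adjusted p is below 0.05, and the bars are medians. The chaperonin genes lie between −0.76 and −0.37 with a median of −0.55, and the medians of the other lists lie between −0.23 and −0.01. Single genes of the other lists reach into the chaperonin range, such as *Tuba1b* (−0.51).

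The genes most like the chaperonins over the 6 libraries were found by the root mean square difference in log2 CPM, each gene centred on its own mean, from the mean pattern of the 9. They were *Ppat* (0.02), *Cdk2ap1* (0.02), *Tars* (0.03), *Cdca7l* (0.04) and *Mrps10* (0.04). The chaperonin genes themselves lay between 0.06 (*Cct8*) and 0.18 (*Hspe1*) from that mean, which includes them. *Ppat*, the first enzyme of purine synthesis, was at 114, 92.2 and 94.5 CPM in wt/wt and 67.9, 71.1 and 66.5 CPM in fl/fl libraries. The high first wt/wt library is part of the pattern that was matched.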

How the data were processed

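CD27SP NK cells of 3 libraries per genotype were sequenced single end from SMART-Seq v4 libraries. The authors deposited 3 quantities per library for each of 100583 mouse transcripts, the effective length, the TPM value and the estimated count, with no further normalization of the estimated counts. Per the labels and methods the authors used Salmon in the nf-core/RNAseq pipeline with a human reference, while the columns have the names of kallisto's output and the identifiers are of mouse.

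Estimated counts were summed by symbol (GENCODE M21, GRCm38, 100239 transcripts matched, at most 0.169% of counts unmatched), rounded, filtered by filterByExpr, normalized by TMM and tested in edgeR 4.0.16 (R 4.3.3) by quasi-likelihood with the replicate number as a block, since the study calls its analysis paired. P-values were adjusted by Benjamini-Hochberg over 15474 genes. CPM values carry TMM factors, and TPM was summed per gene. Standard errors are of the log2 fold change.

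Libraries of equal number did not deviate together (correlations −0.01, −0.02 and 0.05 over all genes, limit 0.1). No 2 libraries were identical. Alternatives were DESeq2 1.42.0, limma-trend (3.58.1) on CPM or on log2(TPM + 1) and log2(TPM + 0.1), the largest adjusted p of the 3 methods, no replicate block, libraries left out, length offsets, other scalings and filters, coding transcripts only, and an adjusted p below 0.05 alone. The test was checked on simulated data.

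Named were all members, *Myc*, the most abundant gene of each list and any past the threshold, and the 5 genes of most similar pattern. Other genes, singled out for an adjusted p below 0.05 or for the effect of a setting, were named after their values were seen. The members, lists and this rule were chosen with earlier results of these data known. Protein sequences were not used here, and 1 further marker list is not reported here.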

Additional observations from a re-analysis of the deposited data

How the results depend on the processing

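None of the 9 chaperonin genes changed sign in any of the 22 alternatives. As the genotypes did not overlap in these genes, leaving libraries out could hardly change a sign. The alternatives that differ only in the adjusted p reuse the fold changes of the main fit. Their median log2 fold change of −0.55 ranged from −0.64 to −0.38 when the libraries of 1 number were left out, and from −0.60 to −0.45 when 1 library was left out without the replicate block. The count past the threshold was 0 in the test with the replicate block, also with the libraries of any 1 number left out. Without the replicate block it was 1 (*Cct5* −0.76) and fell to 0 with any 1 of the 6 libraries left out. It was 4 in DESeq2 (*Cct5* −0.76, *Hspd1* −0.65, *Cct4* −0.65, *Tcp1* −0.59), 3 with no filter on low counts (*Cct5* −0.74, *Hspd1* −0.63, *Cct4* −0.63), and 4 at an adjusted p below 0.05 with no fold change limit (*Cct5* −0.76, *Hspd1* −0.65, *Cct4* −0.65, *Tcp1* −0.59). The other alternatives called none.

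For the 83 genes of the partner lists, 0 were called in the test with the replicate block. The counts were 4 lower and 3 higher in DESeq2 and at an adjusted p below 0.05 with no fold change limit, 3 lower and 3 higher with no filter, 2 lower with no replicate block, and 1 higher with at least 10 counts in every library. With libraries left out they ranged from 0 to 1 lower, the 1 being without the first wt/wt library and without the replicate block. *Myc* kept its direction in all of them, with an adjusted p above 0.01 for log2(TPM + 0.1) (−1.53), log2(TPM + 1) (−1.52) and without the libraries numbered 1 (−1.30, against a lowest value of −1.62 with libraries left out). Without the replicate block, 7 chaperonin genes in place of 4, and 6 lower and 2 higher partner genes in place of 4 and 3, had an adjusted p below 0.05, and *Alas2* passed the threshold among the marker genes named here. The cause of these shifts was not tested. Depth limits the first wt/wt library most, where *Hspe1* had 774 counts, and 3 libraries per genotype limit the tests.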
